A study of Mus musculus with 20 samples.

Results

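The first 2 days of differentiation were followed in the mouse preadipocyte line 3T3-L1, which turns into fat cells when induced with hormones, by setting the 2 RNA-seq libraries of scrambled-hairpin cells at day 2 against the 2 libraries of the same cells at day 0. The members were chosen by label alone: 4 of the 20 libraries of a time course in which cells with a lentiviral hairpin, either against Tcf7l2 or scrambled, were sampled at days 0, 2, 4, 6 and 8, with 2 libraries per hairpin and day. The 4 groups used here were scrambled day 2, scrambled day 0, Tcf7l2 knockdown day 2 and Tcf7l2 knockdown day 0. All of them carried a SMARTvector construct, were infected at passage 2 and were selected with puromycin as a mixed population, so the scrambled cells are not untouched 3T3-L1 cells. Per the labels the cells were induced by a published procedure with thiazolidinedione not routinely added, and the labels do not list the hormones used. Nothing in them tells whether both libraries of a group derive from different cultures. The p-values therefore cover the variation among these particular libraries, and this variation may be technical. Day and any batch of culture or library preparation cannot be told apart.

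Adipogenesis in these cells begins when growth-arrested preadipocytes meet inducers such as a glucocorticoid, an agent that raises cyclic AMP, and insulin. The transcription factors Cebpb and Cebpd act first and are followed by Pparg and Cebpa, which drive the genes of the mature adipocyte, while the cells pass through a limited round of division known as mitotic clonal expansion. Preadipocyte genes such as Dlk1, which encodes a membrane protein that holds back differentiation, are turned down, and the contractile cytoskeleton and fibrillar matrix of the fibroblast are rebuilt.

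Levels are given as joint normalised counts: read counts recovered from the deposited values and divided by a size factor per library that was computed over all 20 libraries, because the authors had normalised each day separately. They are not corrected for gene length. The 4 libraries held 20150000 to 33970000 reads, rounded to 10000, and 19838 to 20698 genes had a read. A gene was tested if its mean normalised count was at least 10 in the day 0 or the day 2 table, which left 15915 of 33581 genes. Differences are on the log2(joint normalised count + 1) scale with a standard error (SE) from limma, and a gene was called at an adjusted p under 0.05. Among 9 fibroblast and preadipocyte markers, summed levels were 525016 and 558735 at day 2 and 742792 and 1336896 at day 0. Of the defining genes of other cell types, Emr1 and Tyrobp (macrophages), Epcam (epithelia) and Myod1 (muscle) were at 0 reads in all 4 libraries. Summed over the whole lists, 9 macrophage markers stood at 659 to 696 at day 2 and 797 to 955 at day 0, and 8 epithelial markers at 28 to 74 at day 2 and 8 to 12 at day 0, and the part of these markers in the results was not tested. Of the tested markers, 3 of 5 for macrophages (Cd14, Csf1r and Lyz2) and 1 of 2 for muscle (Des) fell, and both for epithelia (Krt14 and Krt19) rose, all named after their values were seen. The call of Lyz2 held without each single library. That of Krt14 ended without the second day 2 library. That of Krt19 ended without the second library of either day, without either knockdown day 2 library and without a trend in the spread. Csf1r lost its call without each of the scrambled libraries, Cd14 without the first library of either day, and Des without the first day 2 library. In the fit over all 20 libraries the calls of Krt19, Cd14 and Des also ended (adjusted p = 0.135, 0.0851 and 0.11).

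Over the 2 days 2491 genes rose (15.7% of the 15915 tested) and 2535 fell (15.9%), so that 31.6% of genes were called. A log2 difference of at least 1 was reached by 1107 of the genes that rose (6.96% of those tested) and by 1442 of those that fell (9.06%). The libraries of the days did not overlap for 67% of genes, and the median log2 difference of all genes was 0.02. Without the second scrambled library of day 2 the calls came to 1184 higher and 1481 lower. A test of a change of more than 2-fold called 333 genes higher and 353 lower.

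The largest increases among genes above the median level included regulators, secreted proteins and enzymes of lipid and nitrogen metabolism. Zbtb16, a zinc finger transcription factor known as a glucocorticoid-induced gene, had 2842 and 1696 counts at day 2, against 49.8 and 18.4 at day 0 (log2 difference 6.13, SE 0.552). Fam107a, another known glucocorticoid-induced gene, stood at 4406 and 2932 at day 2 and at 2.62 and 3.35 at day 0 (9.82, SE 0.396). For Lcn2, which encodes lipocalin 2, the day 2 libraries gave 2963 and 4441 and the day 0 libraries 11.8 and 0.837 (9.55, SE 0.766). All 3 were low in both day 0 libraries and far higher in both day 2 libraries. Day 0 levels of Fam107a and Lcn2 were near the floor, so the sizes of their differences depend on the 1 added to each count. Only genes whose libraries did not overlap between the days were taken here. Glul, glutamine synthetase, had 25257 and 25783 at day 2 and 749 and 712 at day 0, a ratio of means of 34.9 with the smallest adjusted p of all genes (5.13, SE 0.119, adjusted p = 1.48e-06). Its processed copy Glns-ps1 moved alongside (5.24, SE 0.21), and reads of the pair may have been split between them. Pcx, pyruvate carboxylase, measured 30298 and 37615 at day 2, against 1750 and 2022 at day 0 (4.17, SE 0.155). Prg4, a lubricating proteoglycan, reached 2860 and 3598 at day 2, against 22.3 and 8.37 at day 0 (7.76, SE 0.407). The group was completed by Cidec, Sema3g, Adamts15, Agpat9, Acsl1, Pnpla2, Mtap7d2 and 1 predicted gene. Mtap7d2, with 1468 and 1238 counts at day 2, had 2 reads in all at day 0 and is given no fold.

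The largest decreases are given for genes above the median level whose libraries did not overlap, so that genes at lower levels may have fallen further. Cdsn, corneodesmosin, an adhesion protein best known from skin, fell to 65.1 and 51.6 at day 2, against 3415 and 3716 at day 0 (log2 difference -5.92, SE 0.284). Mmp9, a gelatinase, had 39.8 and 78.6 at day 2 and 1235 and 1257 at day 0 (-4.45, SE 0.289). Timp3, a matrix-bound inhibitor of metalloproteinases, measured 90.3 and 90.4 at day 2, against 1510 and 1299 at day 0 (-3.94, SE 0.221). That the libraries of the days did not overlap for these 3 genes follows from that choice. Spp1, osteopontin, had 359 and 399 at day 2 and 6377 and 3106 at day 0 (-3.55, SE 0.446), and it made up most of the summed level of 8 cartilage and bone markers, which was 382 and 479 at day 2 and 6477 and 3183 at day 0. Of the 3 tested markers of that list Spp1 and Dmp1 fell, while Alpl, alkaline phosphatase, named after its values were seen like Dmp1, had 15.7 and 68.5 at day 2 and 1.31 and 3.35 at day 0 and was called higher (3.42, SE 0.88). The call of Alpl ended in the fit over all 20 libraries (adjusted p = 0.064), without the first day 0 library (adjusted p = 0.0801) and without the second day 2 library (adjusted p = 0.149). The others were Mamdc2, Pltp, Sdc3, Enpp5, Cryab, Thbs2, Islr, Acta2, Pdpn, Gas2 and 1 predicted gene, with log2 differences between -3.78 and -3.17.

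**Figure D1:**
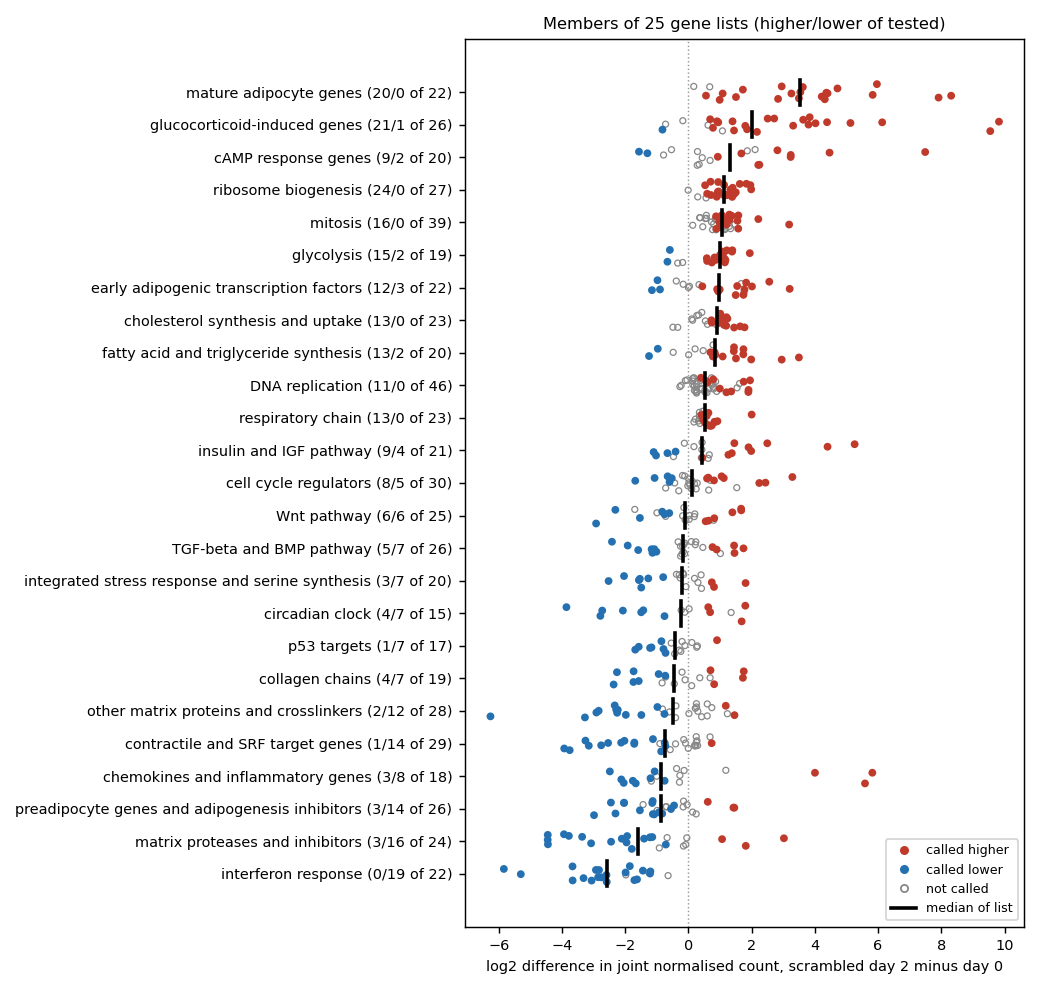
Log2 difference in joint normalised count, scrambled day 2 minus day 0 (horizontal axis), for the tested members of 25 gene lists, ordered by list median (black bars). Filled points passed the test and open points did not. Medians run from 3.52 for mature adipocyte genes at the top to -2.59 for interferon response genes at the bottom.

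Genes known to be induced by glucocorticoids rose as a broad group. Of 26 tested members of that list, 21 rose (80.8%) and 1 fell (3.85%), beside 15.7% and 15.9% of all genes. The median log2 difference was 2.01 beside 0.02 for all genes. Fkbp5, a chaperone that damps the glucocorticoid receptor, had 34135 and 37523 counts at day 2, against 2464 and 1975 at day 0 (4.02, SE 0.159, adjusted p = 1.22e-05). Tsc22d3, the glucocorticoid-induced leucine zipper protein, had 20146 and 18109 at day 2 and 1459 and 1290 at day 0 (3.80, SE 0.154). Errfi1, a feedback inhibitor of the EGF receptor, measured 12578 and 9733 at day 2, against 862 and 926 at day 0 (3.63, SE 0.213). These 3 were taken for small adjusted p, so a difference between the days beyond that between libraries of a day comes with the choice. Mertk and Cyp7b1 did not pass (1.08, SE 0.387, and -0.73, SE 0.257).

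Genes of the cyclic AMP response were mixed, with 9 of 20 higher (45.0%), 2 lower (10.0%) and a median of 1.30, beside 15.7% and 15.9% of all genes. The members that rose included phosphodiesterases, which break cyclic nucleotides down. Pde4b had 2703 and 2374 at day 2, against 397 and 326 at day 0 (2.81, SE 0.269). Pde10a had 1330 and 910 at day 2 and 280 and 201 at day 0 (2.21, SE 0.248), and Pde3b, the insulin-activated form of fat cells, rose by 1.67 (SE 0.196), a call that ended in the fit over all 20 libraries (adjusted p = 0.0861). Ppp1r1b, which encodes the phosphatase inhibitor DARPP-32, had 198 and 298 counts at day 2 and 1 read in both day 0 libraries together, and Dio2, a deiodinase, had 45.8 and 43.1 at day 2 and 2 reads at day 0, so neither is given a fold.

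In the insulin and IGF pathway 9 of 21 members rose (42.9%) and 4 fell (19.0%), with a median of 0.44, beside 15.7% and 15.9% of all genes. Tbc1d4, the Akt substrate that controls glucose transporter traffic, had 2932 and 2783 at day 2, against 456 and 563 at day 0 (2.49, SE 0.158). Pik3r1, the regulatory subunit of PI3-kinase, had 13430 and 14316 at day 2 and 2916 and 4213 at day 0 (1.98, SE 0.219). Igfbp5, an IGF-binding protein, had 916 and 344 at day 2, against 11.8 and 15.9 at day 0 (5.26, SE 0.488), and Irs2 rose by 1.37 (SE 0.243). Akt1 lay at 10135 and 11089 at day 2 and 11039 and 12201 at day 0, with overlapping libraries (-0.13, SE 0.139). The number of members called was 8 without the second day 0 library, 7 without the second day 2 library and 8 without a trend in the spread.

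Of the early adipogenic transcription factors, 12 of 22 rose (54.5%) and 3 fell (13.6%), beside 15.7% and 15.9% of all genes. Their median was 0.97. Cebpd had 4395 and 4825 counts at day 2, against 930 and 658 at day 0 (2.56, SE 0.203, adjusted p = 0.00013). Klf5, a Krüppel-like factor downstream of the C/EBPs, had 1236 and 1363 at day 2 and 114 and 172 at day 0 (3.20, SE 0.226). Cebpb measured 4155 and 11827 at day 2 and 1654 and 2601 at day 0, a difference of 1.76 with an SE of 0.596 that did not pass the test (adjusted p = 0.0563). Its libraries did not overlap, but the 2 day 2 libraries lay far apart. Without the first day 2 library, or in a fit of the 4 scrambled libraries alone, it passed (adjusted p = 0.0315 and 0.0477).

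The later pair of regulators had already risen by day 2. Pparg, the master regulator of fat cell genes, stood at 2471 and 3319 at day 2 and at 861 and 817 at day 0 (1.77, SE 0.19). Cebpa had 2816 and 4612 at day 2, against 1086 and 952 at day 0 (1.83, SE 0.25), and its call ended in the fit over all 20 libraries (adjusted p = 0.0774). Rxra, the partner receptor of Pparg, had 16624 and 18828 at day 2 and 6508 and 6061 at day 0 (1.49, SE 0.156). The repressor Bcl6 rose by 2.01 (SE 0.196), with 1148 and 1125 counts at day 2 and 324 and 245 at day 0. Tcf7l2 itself, the gene studied in this series, had 1126 and 1204 at day 2 and 1107 and 1585 at day 0, with overlapping libraries and no call (-0.19, SE 0.251, adjusted p = 0.617).

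**Figure D2:**
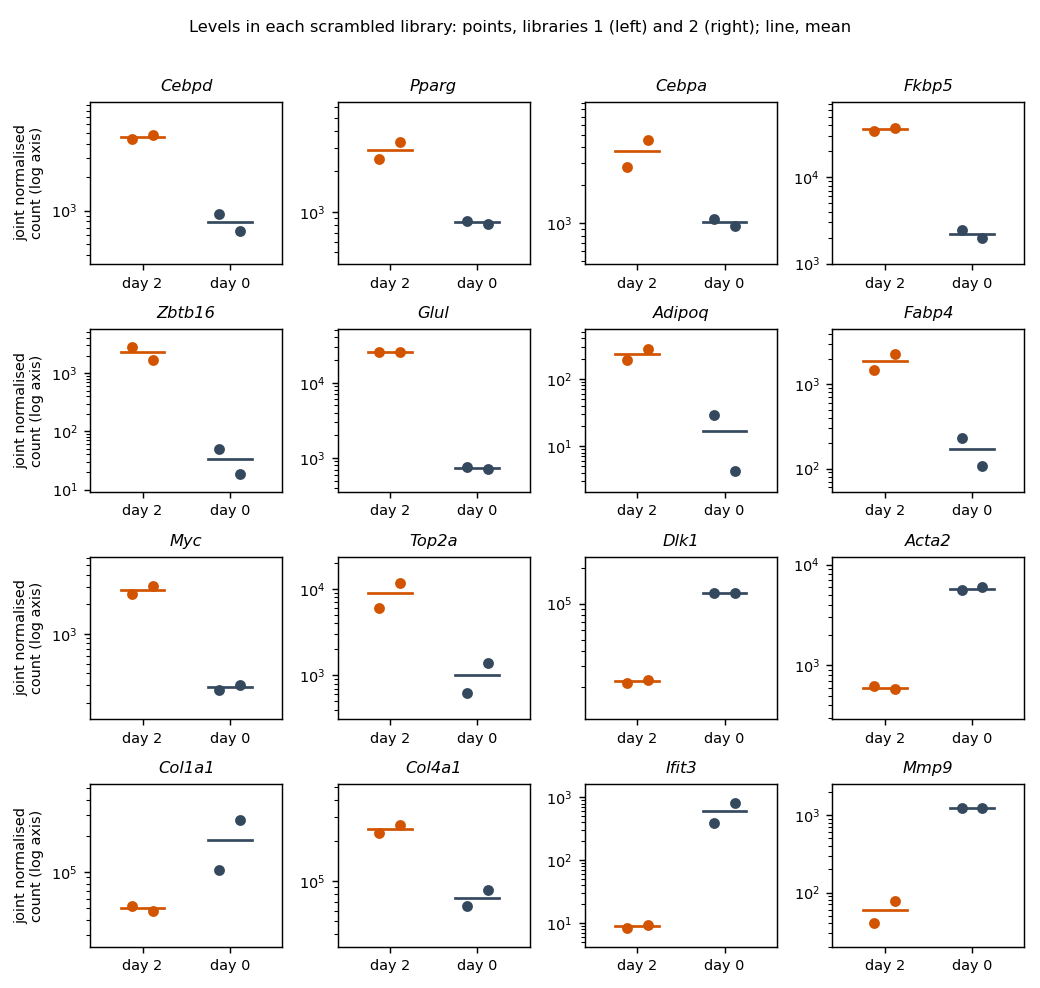
Joint normalised count on log axes for 16 genes in the 2 scrambled libraries of day 2 (orange, left) and of day 0 (dark, right), with horizontal lines at the mean. In each panel the libraries of the days do not overlap, from Glul at 25257 and 25783 against 749 and 712 to Acta2 at 618 and 582 against 5531 and 5985. The libraries did not overlap for 67% of all genes tested.

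Mature adipocyte genes had the highest median of the lists, 3.52. Of 22 tested members 20 rose (90.9%) and none fell at an adjusted p under 0.05, beside 15.7% and 15.9% of all genes. The 2 members that did not pass were Mgst1 and Aqp7 (0.17, SE 0.301, and 0.67, SE 0.449). Another 6 listed genes, Cidea, Lep, Pck1, Adrb3, Lgals12 and Rbp4, were below the minimum level and were not tested. Without the second day 2 library 13 members were called.

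Lipases, fatty acid enzymes and carriers were among the members with the firmest calls. Pnpla2, adipose triglyceride lipase, had 6501 and 8436 counts at day 2, against 355 and 389 at day 0 (4.31, SE 0.169). Acsl1, which activates long-chain fatty acids, had 10735 and 18948 at day 2 and 867 and 554 at day 0 (4.36, SE 0.286). Lipe, hormone-sensitive lipase, had 2777 and 4721 at day 2, against 394 and 362 at day 0 (3.26, SE 0.257). Fabp4, the fatty acid carrier of fat cells, had 1491 and 2261 at day 2 and 232 and 106 at day 0 (3.54, SE 0.472).

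Other members of the list were low at day 0 and unequal between its libraries. Adipoq, the adipokine adiponectin, stood at 193 and 275 counts at day 2 and at 28.8 and 4.18 at day 0 (4.22, SE 0.83), and its call ended without the second day 2 library (adjusted p = 0.0565). Cidec, a lipid droplet protein, had 1205 and 2065 at day 2, against 41.9 in the first and 0 in the second day 0 library (7.91, SE 1.49). The size of this difference depends on the 1 added to each count. Chosen after their values were seen, Plin1, which coats lipid droplets, had 691 and 1099 at day 2 and 6.55 and 0 at day 0, and Cd36, a fatty acid transporter, had 484 and 989 at day 2 and 18.3 and 6.69 at day 0. The first day 0 library was the higher one for all 4 of these genes, and the second day 2 library was the higher one at day 2. Fewer cells making a transcript and less of it per cell cannot be told apart in such bulk samples.

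Enzymes that make fatty acids, triglycerides and sterols were mostly higher at day 2. In fatty acid and triglyceride synthesis 13 of 20 members rose (65%) and 2 fell (10%), with a median of 0.84. In cholesterol synthesis and uptake 13 of 23 rose (56.5%) and none fell at an adjusted p under 0.05 (median 0.89). Of all genes 15.7% rose and 15.9% fell. Dgat2, which makes triglyceride from diacylglycerol, had 899 and 1688 counts at day 2, against 105 and 112 at day 0 (3.49, SE 0.291). Scd1, a fatty acid desaturase, had 18909 and 23750 at day 2 and 3318 and 2267 at day 0 (2.95, SE 0.205), while the desaturase Fads2 fell by 1.25 (SE 0.125), with 807 and 883 at day 2 and 1983 and 2031 at day 0. Hsd17b7, a step in cholesterol synthesis, had 1135 and 1444 at day 2, against 384 and 364 at day 0 (1.77, SE 0.205), and Dhcr7, the last step, rose by 1.64 (SE 0.152). Srebf2, the transcription factor of the pathway, had 3945 and 4590 at day 2 and 2859 and 3016 at day 0 and did not pass (0.54, SE 0.198, adjusted p = 0.0737). In the fit over all 20 libraries 6 members of the fatty acid list and 8 of the cholesterol list were called, and 8 of the cholesterol list without the second day 2 library. The calls of Dgat1, Scd1 and Scd2 ended in the fit over all 20 libraries.

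In glycolysis 15 of 19 members rose (78.9%) and 2 fell (10.5%), with a median of 1.00, beside 15.7% and 15.9% of all genes. Ldha, lactate dehydrogenase A, had 20944 and 23600 counts at day 2, against 9895 and 7379 at day 0 (1.38, SE 0.215). Pkm2, pyruvate kinase, had 41321 and 46215 at day 2 and 21505 and 18289 at day 0 (1.14, SE 0.183). Subunits of the respiratory chain had 13 of 23 members higher (56.5%), none lower at an adjusted p under 0.05 and a median of 0.52. The electron carrier Cycs, cytochrome c, had 3831 and 5277 at day 2, against 1185 and 1066 at day 0 (2.00, SE 0.165). In the fit over all 20 libraries 3 glycolysis and 2 respiratory chain members were called. Without the second day 2 library these counts were 10 and 3, and without the second day 0 library 5 respiratory chain members were called. The call of Ldha ended in the fit over all 20 libraries (adjusted p = 0.104).

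Genes for making ribosomes rose almost throughout, together with Myc, a transcription factor that drives growth. In ribosome biogenesis 24 of 27 members rose (88.9%) and none fell at an adjusted p under 0.05, beside 15.7% and 15.9% of all genes. The median was 1.14. Myc had 2573 and 3062 counts at day 2, against 271 and 303 at day 0, a ratio of means of 9.82 (3.29, SE 0.173, adjusted p = 3.19e-05). Nop56, a protein of the small nucleolar particles that modify ribosomal RNA, had 4799 and 6040 at day 2 and 1462 and 1561 at day 0 (1.83, SE 0.179). Nolc1, a nucleolar scaffold protein, rose by 1.62 (SE 0.166). Npm1, an abundant nucleolar chaperone, had 16993 and 19717 at day 2 and 15872 and 14058 at day 0 and did not pass (0.29, SE 0.167).

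Genes of DNA replication and mitosis rose in part, with a wide spread between libraries. Of 39 mitosis genes 16 rose, with a median of 1.07, and of 46 DNA replication genes 11 rose, with a median of 0.52. In neither list did a member fall at an adjusted p under 0.05. The members that rose were 41.0% and 23.9% of those tested. Of all genes 15.7% rose and 15.9% fell, which is 31.6% over both directions. Top2a, the topoisomerase of dividing cells, had 6054 and 11746 counts at day 2, against 620 and 1386 at day 0 (3.19, SE 0.534). Rrm2, a subunit of ribonucleotide reductase, had 1099 and 1899 at day 2 and 325 and 459 at day 0 (1.90, SE 0.326). Nusap1, a spindle protein, had 648 and 912 at day 2, against 118 and 232 at day 0 (2.21, SE 0.458). For each of these genes the second library was the higher one on both days. Mki67, the usual marker of cycling cells, had 2008 and 2314 at day 2 and 532 and 1376 at day 0 and did not pass (1.33, SE 0.572, adjusted p = 0.114). It passed without the second day 0 library (adjusted p = 0.0396) and without the first or the second knockdown day 0 library (adjusted p = 0.0379 and 0.0374). Without the second day 2 library 1 mitosis and 3 replication genes were called, without the first day 0 library 2 and 4, and without a trend in the spread 7 and 7. The fit of the 4 scrambled libraries alone called 24 mitosis and 12 replication genes, and the fit without the second day 0 library 22 and 13. The call of Nusap1 ended without the second day 2 library (adjusted p = 0.0708).

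Among cell cycle regulators 8 of 30 rose (26.7%) and 5 fell (16.7%), beside 15.7% and 15.9% of all genes, and the 3 D-type cyclins went separate ways. Ccnd3 had 6625 and 7910 at day 2 and 3252 and 3426 at day 0 (1.12, SE 0.144). Ccnd2 had 8444 and 8140 at day 2, against 17629 and 17229 at day 0 (-1.07, SE 0.153). Ccnd1 had 4330 and 4458 at day 2 and 3090 and 4803 at day 0, with overlapping libraries and no call (0.19, SE 0.346). Cdkn1a, the p21 inhibitor of cyclin-dependent kinases, did not pass (-0.44, SE 0.165). Without the second day 2 library 8 of the regulators were called, and the call of Ccne2, a cyclin of S phase entry, ended (adjusted p = 0.0562).

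The promoters of mitosis genes can be read for the cell cycle homology region, TTTGAA, an element known from genes of late cell cycle phases. Windows of 300 bases, from 250 before to 50 after the gene start in RefSeq (GRCm38.p6), were found by symbol for 32 of the 39 mitosis genes. The letters occurred on either strand in 24 of these (75%), and in 20.2% of the 27025 genes with a window. Of the 12 members with a window that rose, 7 held them (58.3%). The stretches of the 3 genes with the smallest adjusted p among those that rose and held the letters are shown so that the element can be seen beside the gene start. They read 5′ to 3′ on the gene's strand, with matches in capitals (TTCAAA is the same element on the other strand). The genes are Top2a (chr11:99024150-99024269, minus strand), Aurka, a spindle pole kinase (chr2:172370521-172370640, minus strand), and Cdk1, the kinase that starts mitosis (chr10:69352865-69352984, minus strand).
Top2a: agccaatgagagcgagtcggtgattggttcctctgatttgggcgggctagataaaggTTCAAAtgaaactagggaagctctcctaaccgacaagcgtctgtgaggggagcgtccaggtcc
Aurka: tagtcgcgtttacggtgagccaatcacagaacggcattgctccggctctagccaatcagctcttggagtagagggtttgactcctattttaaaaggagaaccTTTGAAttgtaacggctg
Cdk1: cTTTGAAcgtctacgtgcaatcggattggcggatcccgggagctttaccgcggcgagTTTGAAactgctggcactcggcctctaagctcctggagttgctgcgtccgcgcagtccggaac
Aurka and Cdk1, chosen after their values were seen, rose by 1.29 (SE 0.345) and 0.97 (SE 0.259). Both calls ended without the first day 0 library (adjusted p = 0.0923 and 0.108) and without the second day 2 library (adjusted p = 0.164 and 0.163), and that of Cdk1 also without a trend in the spread (adjusted p = 0.0524).

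Preadipocyte genes and inhibitors of adipogenesis fell in the main, with 14 of 26 lower (53.8%), 3 higher (11.5%) and a median of -0.89. Of all genes 15.9% fell and 15.7% rose. Dlk1 had 21686 and 23257 counts at day 2, against 122772 and 123295 at day 0, which is 5.48 times as much at day 0 (-2.45, SE 0.181, adjusted p = 9.63e-05). Gata2, a transcription factor that represses Pparg, had 100 and 92.1 at day 2 and 672 and 879 at day 0 (-2.99, SE 0.256). Pdgfrb, a receptor of progenitor cells, fell by 2.31 (SE 0.169), with 2298 and 1916 at day 2 and 9108 and 11889 at day 0. Foxo1, a target of insulin signals that restrains adipogenesis, went the other way, with 1941 and 1874 at day 2 and 646 and 752 at day 0 (1.45, SE 0.122). Egr1 did not pass (-0.70, SE 0.281, adjusted p = 0.0964). Without the second day 2 library 9 members were called.

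The contractile apparatus fell with its smooth muscle isoforms, while the cytoplasmic actins did not pass. Of 29 contractile and SRF target genes, 14 fell (48.3%) and 1 rose (3.45%), with a median of -0.73, beside 15.9% and 15.7% of all genes. Acta2, smooth muscle actin, had 618 and 582 counts at day 2, against 5531 and 5985 at day 0 (-3.26, SE 0.25). Myl9, a myosin light chain, had 32.5 and 38.9 at day 2 and 521 and 594 at day 0 (-3.93, SE 0.252). Tpm1, a tropomyosin, had 2239 and 2102 at day 2, against 12283 and 13016 at day 0 (-2.54, SE 0.134). Actg2, a second muscle actin, fell by 3.15 (SE 0.226). Actb had 33604 and 38505 at day 2 and 24821 and 36740 at day 0, with overlapping libraries (0.25, SE 0.251), and Actg1 did not pass either (0.27, SE 0.184).

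SRF, serum response factor, binds the CArG box, and its letters were searched in the same promoter windows. They were found in 8 of the 23 contractile genes with a window (34.8%), and in 1.81% of all 27025 genes. Of the 10 members with a window that fell, 4 held one. The 3 of these with the smallest adjusted p are shown, with the box in capitals: Myl9 (chr2:156775248-156775367, plus strand), Fhl2, a LIM-domain cofactor (chr1:43196793-43196912, minus strand), and Cnn2, a calponin chosen after its values were seen (chr10:79988489-79988608, plus strand).
Myl9: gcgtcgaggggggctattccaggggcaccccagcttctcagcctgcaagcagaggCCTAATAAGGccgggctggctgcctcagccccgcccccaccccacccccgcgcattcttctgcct
Fhl2: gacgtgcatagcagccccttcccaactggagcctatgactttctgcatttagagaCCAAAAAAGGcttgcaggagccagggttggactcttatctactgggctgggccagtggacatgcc
Cnn2: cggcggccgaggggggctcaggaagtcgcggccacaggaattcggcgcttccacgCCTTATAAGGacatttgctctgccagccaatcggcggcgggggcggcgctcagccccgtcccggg
Fhl2 had 214 and 271 counts at day 2 and 735 and 859 at day 0 (-1.72, SE 0.164), and Cnn2 fell by 2.13 (SE 0.249).

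Collagen chains moved in both directions, with 4 of 19 higher (21.1%), 7 lower (36.8%) and a median of -0.45, beside 15.7% and 15.9% of all genes. Among basement membrane chains Col4a1 and Col4a2 rose: Col4a1 had 227643 and 264075 counts at day 2, against 64757 and 85254 at day 0 (1.72, SE 0.198), and Col4a2 had 127524 and 155815 at day 2 and 33201 and 52991 at day 0 (1.75, SE 0.247). Col4a5, of the same type, fell by 2.37 (SE 0.291), with 3351 and 2037 at day 2 and 13677 and 13300 at day 0. Both fibrillar chains of type I collagen fell: Col1a2 had 129410 and 104251 at day 2, against 264074 and 452683 at day 0 (-1.57, SE 0.305), and Col1a1 had 52326 and 47672 at day 2 and 103894 and 268529 at day 0 (-1.74, SE 0.455). Col3a1 did not pass (-0.84, SE 0.413). The second day 0 library was well above the first for all 3 fibrillar chains. The median of the collagen list was -0.97 without the first day 0 library and 0.06 without the second. In knockdown cells it was 0.36. Without the first day 2 library 7 collagen chains were called and without the second 5, and the call of Col1a1 ended without either day 2 library or without the second day 0 library (adjusted p = 0.0825, 0.119 and 0.0723). The call of Col1a2 ended without the second day 2 library (adjusted p = 0.0625).

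Other matrix genes fell more often than they rose, with 12 of 28 lower (42.9%), 2 higher (7.14%) and a median of -0.51. Of all genes 15.9% fell and 15.7% rose. Thbs2, a thrombospondin, had 2667 and 2566 counts at day 2, against 21804 and 29467 at day 0 (-3.28, SE 0.167). Fmod, the collagen-binding proteoglycan fibromodulin, had 1.21 and 5.07 at day 2 and 198 and 397 at day 0 (-6.27, SE 0.573). Its day 2 levels were near the floor, so the size of this difference depends on the 1 added to each count. Loxl3, a collagen crosslinker, fell by 1.98 (SE 0.162), while Fbln5, an elastic fibre protein, rose by 1.18 (SE 0.129). Fn1, fibronectin, overlapped between days, at 145988 and 127273 at day 2 and 88206 and 148116 at day 0 (0.25, SE 0.35).

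Matrix proteases and their inhibitors were among the lists that fell furthest, with 16 of 24 lower (66.7%), 3 higher (12.5%) and a median of -1.60. Of all genes 15.9% fell and 15.7% rose. Plau, urokinase, had 13.3 and 21.1 at day 2, against 206 and 289 at day 0 (-3.78, SE 0.306). Mmp11, stromelysin 3, had 383 and 362 at day 2 and 2207 and 1880 at day 0 (-2.45, SE 0.161). Serpine2, an inhibitor of serine proteases, had 2224 and 2073 at day 2, against 8225 and 8262 at day 0 (-1.94, SE 0.117). Mmp19 stayed within its error, with overlapping libraries (-0.05, SE 0.131).

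In the TGF-beta and BMP pathway 5 of 26 genes rose (19.2%) and 7 fell (26.9%), beside 15.7% and 15.9% of all genes. The ligand gene Tgfb3 fell while 2 receptor genes rose. Tgfb3 had 659 and 625 counts at day 2, against 2324 and 2554 at day 0 (-1.92, SE 0.146). The receptor Tgfbr2 had 13210 and 13303 at day 2 and 3732 and 4216 at day 0 (1.74, SE 0.128), and the co-receptor Tgfbr3 rose by 1.44 (SE 0.188). In the Wnt pathway 6 of 25 rose and 6 fell (24.0% each), beside the same 15.7% and 15.9%. Lrp5, a co-receptor, had 29472 and 30952 at day 2, against 10944 and 8287 at day 0 (1.67, SE 0.197). Lef1, a partner of beta-catenin related to Tcf7l2, had 777 and 862 at day 2 and 269 and 245 at day 0 (1.67, SE 0.159). The secreted antagonist Sfrp2 had 296 and 230 at day 2, against 2094 and 1883 at day 0 (-2.92, SE 0.226), and Ctnnb1, beta-catenin, did not pass (-0.11, SE 0.137). Without the first day 2 library 7 genes of the TGF-beta list and 6 of the Wnt list were called, and 6 of the Wnt list without the second.

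Interferon response genes had the lowest median of the lists, -2.59, with 19 of 22 lower (86.4%) and none higher at an adjusted p under 0.05. Of all genes 15.9% fell and 15.7% rose. Ifit3, an antiviral protein, had 8.43 and 9.30 counts at day 2, against 392 and 812 at day 0 (-5.84, SE 0.675). B2m, the light chain of MHC class I, had 5893 and 5165 at day 2 and 21454 and 18601 at day 0 (-1.86, SE 0.173). Bst2, which tethers viruses to the cell surface, had 196 and 216 at day 2, against 940 and 1662 at day 0 (-2.60, SE 0.381). With voom weights 10 members were called, and without the second day 0, the first day 2 or the second day 2 library 11, 11 and 12.

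The interferon-stimulated response element, searched as GAAANNGAAA on either strand, was held by 10 of the 16 interferon response genes with a promoter window (62.5%), and by 3.99% of all 27025 genes. Of the 14 members with a window that fell, 8 held it. The 3 of these with the smallest adjusted p are shown, with matches in capitals, which overlap in Bst2 and lie on the other strand in Ifit3: B2m (chr2:122147493-122147612, plus strand), Ifit3 (chr19:34583352-34583471, plus strand) and Bst2 (chr8:71537532-71537651, minus strand).
B2m: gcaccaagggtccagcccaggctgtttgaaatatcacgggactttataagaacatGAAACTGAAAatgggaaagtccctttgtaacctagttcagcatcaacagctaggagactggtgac
Ifit3: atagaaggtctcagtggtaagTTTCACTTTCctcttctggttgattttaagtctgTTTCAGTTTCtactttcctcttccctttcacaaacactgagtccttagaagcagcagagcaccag
Bst2: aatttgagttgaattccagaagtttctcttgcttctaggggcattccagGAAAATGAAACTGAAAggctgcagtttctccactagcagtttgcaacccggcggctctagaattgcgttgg
In all 9 stretches a match is a run of letters and not a measured binding site.

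Of the chemokines and inflammatory genes 3 of 18 rose (16.7%) and 8 fell (44.4%), with a median of -0.88, beside 15.7% and 15.9% of all genes. The members that rose were C3, Hp and Saa3, and those that fell were 6 chemokine genes with Csf1 and Vcam1. C3, the central complement protein, had 71979 and 72059 counts at day 2, against 3584 and 5639 at day 0 (4.00, SE 0.246). Hp, haptoglobin, had 617 and 592 at day 2 and 19.7 and 6.69 at day 0 (5.59, SE 0.662), and Saa3, serum amyloid A3, had 68.7 and 82.8 at day 2 and 1 read at day 0. Csf1, the macrophage growth factor, had 2131 and 1581 at day 2, against 9175 and 6994 at day 0 (-2.13, SE 0.201). Vcam1, an adhesion molecule, fell by 1.76 (SE 0.126). Without the second day 2 library 7 members were called.

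Circadian clock genes moved in both directions, with 4 of 15 higher (26.7%) and 7 lower (46.7%), beside 15.7% and 15.9% of all genes. Per1, a clock repressor that is also known as a glucocorticoid-induced gene, had 3285 and 3184 counts at day 2, against 964 and 896 at day 0 (1.80, SE 0.126). Per3, its relative, had 136 and 163 at day 2 and 1134 and 945 at day 0 (-2.79, SE 0.179). Dbp, a clock output factor, had 28.9 and 77.8 at day 2, against 707 and 702 at day 0 (-3.86, SE 0.449), and the repressor Nr1d2 fell by 2.08 (SE 0.141). The labels do not give the hour of sampling, so the clock phase at each day is unknown.

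Stress-linked genes fell more often than they rose. In the integrated stress response and serine synthesis list 3 of 20 rose (15%) and 7 fell (35.0%), and among p53 targets 1 of 17 rose (5.88%) and 7 fell (41.2%), beside 15.7% and 15.9% of all genes. Trib3, a pseudokinase induced by stress, had 259 and 231 counts at day 2, against 1298 and 1542 at day 0 (-2.53, SE 0.428), and Ddit3, the factor CHOP, had 499 and 417 at day 2 and 2033 and 1733 at day 0 (-2.04, SE 0.276). Mthfd2, a mitochondrial folate enzyme, had 3864 and 3245 at day 2, against 859 and 1191 at day 0 (1.81, SE 0.184). Atf4, the central factor of the response, overlapped between days (-0.26, SE 0.231). Of the p53 targets, Bbc3, which promotes cell death, fell by 1.17 (SE 0.158) and the receptor gene Eda2r by 1.22 (SE 0.119). Without the first day 2 library 5 members of each list were called, and 4 of the p53 list without the second.

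**Figure D3:**
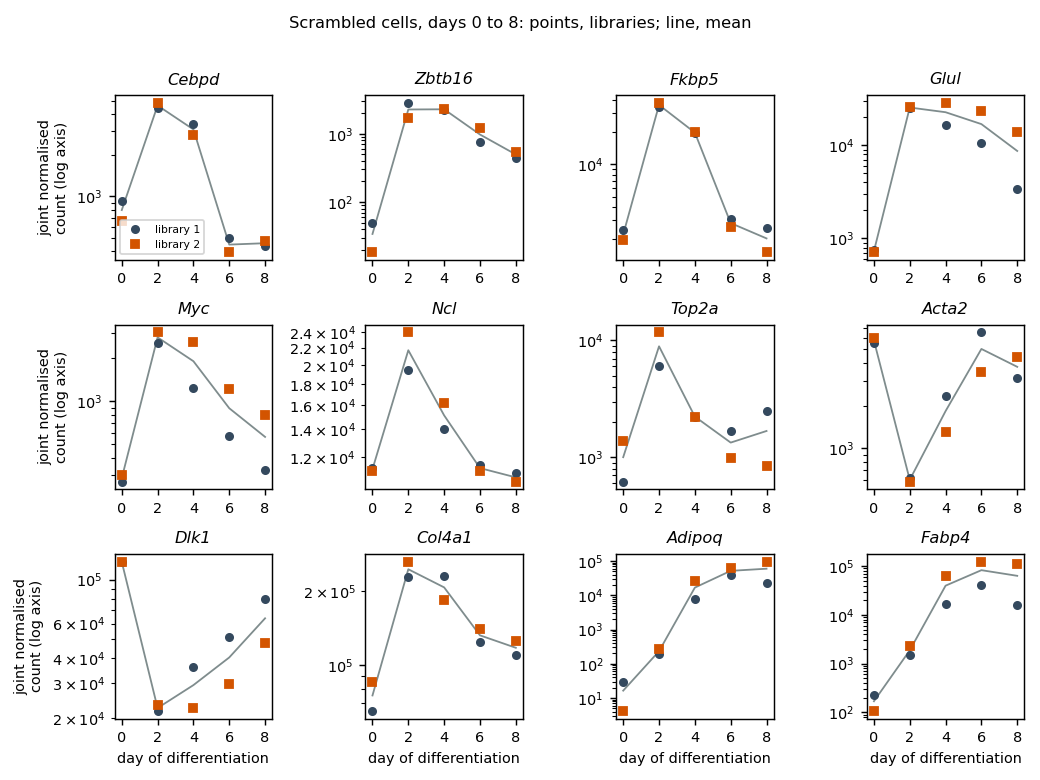
Joint normalised count (log axes) of 12 genes in the scrambled libraries 1 and 2 at days 0, 2, 4, 6 and 8, with lines through the means. Fkbp5 peaks at 34135 and 37523 at day 2 and is at 2563 and 1516 at day 8, while Adipoq goes on to 23518 and 95514.

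Set in the full course, the first 2 days held increases of both passing and lasting kinds. Fkbp5 had 19485 and 20088 counts at day 4, 3068 and 2600 at day 6 and 2563 and 1516 at day 8, near its day 0 level. Cebpd likewise stood at 3376 and 2787 at day 4 and at 436 and 473 at day 8, below day 0. Of the 5 days sampled, both genes were high at days 2 and 4. Adipoq had 7728 and 25735 at day 4 and 23518 and 95514 at day 8, and Fabp4 15811 and 111353 at day 8, so the day 2 levels of these fat cell genes were small beside those that followed. Dlk1 climbed back to 79461 and 48129 at day 8, and Acta2 to 3135 and 4378. Ncl, a nucleolar protein chosen after its values were seen, had 11340 and 11140 at day 0, 19407 and 23946 at day 2 and 10990 and 10488 at day 8. The later days are given without a test. From day 4 the second scrambled library lay above the first for the fat cell genes shown.

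The same 2 days were also sampled in the Tcf7l2 knockdown cells, whose libraries are separate from the scrambled ones. The arms are not independent measurements of the change. Deviations of same-numbered libraries correlated between them at 0.65 (day 0) and 0.51 (day 2), and the fit used 1 spread per gene for both arms. Tcf7l2 was at 449 and 469 counts at day 2 and 365 and 607 at day 0 in knockdown cells, against 1126 and 1204 at day 2 and 1107 and 1585 at day 0 in scrambled cells. In knockdown cells 1562 genes rose (9.81% of those tested) and 1705 fell (10.7%). Across the 15915 genes the log2 differences of the arms correlated with a Pearson's r of 0.90, given as a description, since genes are not independent replicates. Of the 5026 genes called in scrambled cells, 4966 (98.8%) had the same sign in knockdown cells. The share with the same sign over all 15915 genes was not computed, so the 98.8% has no background beside it. Called in both arms in the same direction were 2872 genes, which is 87.9% of the knockdown calls and 57.1% of the scrambled calls. Of all genes tested, 31.6% were called in scrambled cells and 20.5% in knockdown cells, in either direction.

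**Figure D4:**
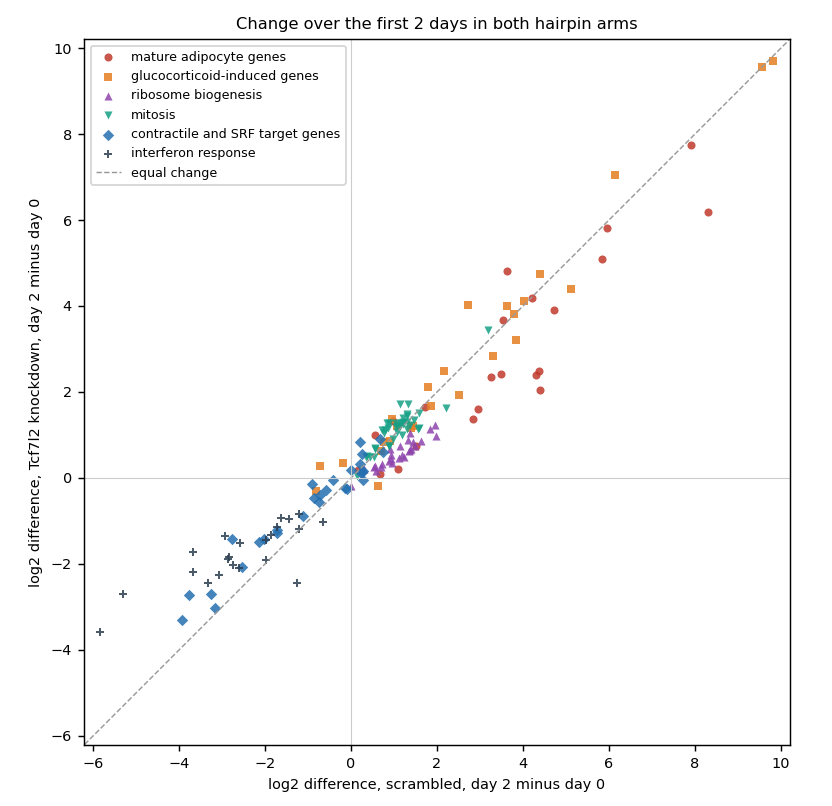
Log2 difference, day 2 minus day 0, in Tcf7l2 knockdown cells (vertical axis) against that in scrambled cells (horizontal axis) for members of 6 gene lists, with a dashed line of equal change. Glucocorticoid-induced genes lie along the line (medians 2.03 and 2.01), and interferon response genes mostly above it (medians -1.77 and -2.59).

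No gene's change differed between the arms at an adjusted p under 0.05 in limma's interaction test, in a fit that did not use replicate numbers. At an unadjusted p under 0.05 there were 814 genes (5.11% of those tested), and the smallest adjusted p was 0.252. With the replicate number added as a block, the change differed for 6 genes (smallest adjusted p = 0.034). Medians of the glucocorticoid list were 2.03 in knockdown and 2.01 in scrambled cells. Those of the mature adipocyte list were 2.38 in knockdown and 3.52 in scrambled cells, and those of ribosome biogenesis 0.54 in knockdown and 1.14 in scrambled cells. The interferon response list had -1.77 in knockdown and -2.59 in scrambled cells. These list medians were set side by side and their differences were not tested.

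Single genes show the size of the gaps that did not pass in the fit without the block. Pnpla2 had 2873 and 2776 counts at day 2 and 471 and 604 at day 0 in knockdown cells, so that its change was smaller by 1.91 than in scrambled cells (difference of log2 differences -1.91, SE 0.239, adjusted p = 0.252). Thbs2 had 7367 and 7496 at day 2 and 23610 and 22349 at day 0 in knockdown cells (1.65, SE 0.236, adjusted p = 0.253). Myc had 1984 and 2485 at day 2 and 457 and 571 at day 0 in knockdown cells (-1.17, SE 0.244, adjusted p = 0.568). For Fkbp5 the log2 differences were 4.13 in knockdown and 4.02 in scrambled cells, and for Pparg 1.81 in knockdown and 1.77 in scrambled cells.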

How the data were processed

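RNA-seq libraries of scrambled and Tcf7l2 knockdown 3T3-L1 cells were made with the TruSeq kit, per the labels. The genome build was mm9, and the tools were SAMtools, Bowtie2 2.2.3.0, TopHat2 2.0.13 and DESeq2 1.10.1, per the submitters' processing notes. The read counter, its strand setting and the annotation are not given in the sources used here. For each day the authors deposited 1 table with variance-stabilised log2 values per library, a mean signal (normalised count), a log2 fold change, a test score, a p-value and an adjusted p-value. Only the log2 values and the mean signal the authors deposited were used, and 0 per-library columns were left unused.

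The transformation was inverted to recover reads, of which 100% lay within 0.02 of a whole number up to 100 reads. They were divided by median-of-ratios size factors over all 20 libraries, since the tables had been normalised separately. Log2(joint normalised count + 1) was fitted with limma 3.58.1 (R 4.3.3, statmod 1.5.0), with trend and robust spread, on 8 libraries (both hairpins, days 0 and 2; 4 groups; 4 residual degrees of freedom). P-values were adjusted by Benjamini-Hochberg over 15915 genes with a mean signal of at least 10 in either table. The fit was run on simulated data with independent libraries and the same dispersion setting for all genes. That run cannot show how the fit behaves with the deviations that same-numbered libraries share here.

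Members and lists were chosen with earlier results of these data known. The rule named 10 set genes, the 15 largest differences per direction among called genes above the median level whose libraries did not overlap, and per list up to 5 called members with the smallest adjusted p and the 2 most abundant not called. Predicted genes were counted and left unnamed. A gene that the rule named is not reported here. Of the lists, endothelial (1 of 7 markers tested), muscle (2 of 7) and neuron (2 of 6) markers served as checks only, with summed levels of 64 to 119, 840 to 859 and 27 to 44 in the 4 libraries. The 2 scrambled libraries of a day were not copies of each other. Their read counts were identical for 1.16% of the genes tested at day 2 and 0.91% at day 0. Their Spearman correlations were 0.992 at day 2 and 0.988 at day 0. Alternatives were other fits, scalings, pseudocounts (5 and 0.5), filters and spreads, voom, a replicate block, a minimum change and leaving out each library.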

Additional observations from a re-analysis of the deposited data

Results flagged for a closer look

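In 2 genes the change over the 2 days passed the test in both arms with opposite signs, every library moving with its arm. Ccl5, a chemokine, had 182 and 213 counts at day 2 and 88.2 and 104 at day 0 in knockdown cells, against 16.9 and 13.5 at day 2 and 31.4 and 34.3 at day 0 in scrambled cells. Its change in knockdown cells exceeded that in scrambled cells by 2.10 (log2, SE 0.363), with an adjusted p of 0.485 in limma's interaction test. Rasgef1b, an exchange factor for small GTPases, had 10.0 and 16.9 at day 2 and 47.2 and 70.2 at day 0 in knockdown cells, against 95.2 and 129 at day 2 and 39.3 and 43.5 at day 0 in scrambled cells. The difference of its changes, knockdown minus scrambled, was -3.46 (log2, SE 0.498, adjusted p = 0.253). Neither difference passed the adjusted test over all genes, and both genes were chosen after their values were seen. In scrambled cells the call of Ccl5 ended in the fit of the 4 scrambled libraries alone (adjusted p = 0.0777) and without the second library of either day (0.071 for day 0 and 0.087 for day 2). That of Rasgef1b ended in the fit over all 20 libraries (adjusted p = 0.0976), without the first day 0 library (0.0734), without the second (0.0546) and without the second day 2 library (0.128).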

How the results depend on the processing

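The count of 5026 genes called between day 2 and day 0 of scrambled cells lay between 4274 and 5058 under other samples in the fit, scalings, pseudocounts, filters, spreads and weights. It was 686 when a change of more than 2-fold was required, and 2665 to 5210 without single libraries, with 2665 reached without scrambled day 2 replicate 2. Of 587 members of the 25 lists 346 were called, 98 with the 2-fold requirement and 223 to 359 without single libraries. The 2-fold requirement moved the count of 24 of the 25 lists by over 1.5 times. Scaling to the library total gave 2065 higher and 2993 lower calls, and the cause was not tested.

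Replicate numbers name no shared culture in the labels. Deviations of same-numbered scrambled libraries of the 2 days correlated at 0.21, and those of knockdown with scrambled libraries at 0.65 (day 0) and 0.51 (day 2). With the replicate block 6930 genes were called, among them 35 mitosis and 27 DNA replication genes, and the change differed between the arms for 6 genes, against 0 in every other fit run. Cebpb and Mki67 passed with it (adjusted p = 0.00104 and 0.0196).

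Of 161 named genes that were called, 141 were also called over all 20 libraries and 142 without scrambled day 2 replicate 2. Signs turned only in genes that were not called. Without single libraries their log2 differences ran from -0.44 to 0.073 for Tcf7l2, -0.095 to 0.43 for Mgst1, -0.13 to 0.51 for Ccnd1, -0.067 to 1.44 for Col6a3, -0.12 to 0.63 for Fn1, -0.57 to 0.40 for Adamts2, -0.14 to 0.029 for Mmp19, -0.030 to 0.54 for Actb, -0.29 to 0.13 for Slc3a2, -0.45 to 0.21 for Bhlhe40, -0.031 to 0.55 for Trp53inp1 and -0.65 to 0.73 for Cd68, which stood at -0.047 with scaling to the library total. With 2 libraries per group the spread between libraries limits the precision of most genes.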
